A study of Mus musculus with 108 samples.

Results

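Livers of male mice of 2 inbred strains, 129S1/SvImJ (129 below) and C57BL/6J (B6 below), were compared on normal chow during the dark phase, the part of the day in which mice are active and feed. The comparison holds 18 of the 108 labelled libraries of the series: 9 from 129 mice and 9 from B6 mice, taken at zeitgeber times ZT14, ZT18 and ZT22, with 3 libraries per strain and time. They were chosen by the labels for strain, diet and time alone, and both strains were labelled wild type. Zeitgeber time counts hours from lights on. The series also holds both strains on chow at ZT2, ZT6 and ZT10 and both strains on a high fat and sucrose diet (HFD below) at all 6 times, and 18 libraries from each of these 2 other settings (chow in the light phase, HFD in the dark phase) were used to see where the chow dark-phase difference stood apart. Libraries labelled Esrrg LKO and Errg-Cre were not used here.

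Inbred strains of mice differ in fixed DNA sequence and in the number of copies of several gene families. In the liver the best known of these families are the major urinary proteins (Mup), small pheromone carriers that are secreted into the urine, the serine protease inhibitors of the Serpina1 and Serpina3 clusters, and the Cyp2 cytochromes P450, which oxidise steroids and foreign compounds. Liver genes of carbohydrate, fat and sterol metabolism also follow feeding and the circadian clock. The question this comparison addresses is how the 2 strains differ in liver RNA at that time of day on a plain diet.

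RNA levels are deposited transcript values that had been quantile normalised, so each library holds the same set of values with the same total of 10837743 and its sequencing depth is not known. A value is therefore a level read against the other transcripts of its own library. Levels are compared between strains for 1 gene and not between genes. Strain differences are given as 129 minus B6 on the log2(value + 1) scale, with time as a block, and a gene was called where the Benjamini-Hochberg adjusted p of limma was under 0.05. Whether the libraries of a group came from separate mice is not in the labels, and the p-values describe only how libraries of 1 group vary. Where values of a gene are given in a row of 3 for a strain, they are the lowest, the median and the highest of its 9 libraries. Exact zeros occur also in genes that every cell uses, so such a gene is only said to be listed at 0.

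The libraries carried the RNA of liver. All 14 hepatocyte markers on the list used (among them Alb, Ttr, Hnf4a and Cps1) passed the filter on low values, and their summed value was 458548, 462855 and 1223680 in 129 and 1025450, 1081670 and 1213820 in B6. Alb, serum albumin, was the largest part of that sum and was lower in 129 (log2 -2.03, adjusted p = 0.000344), whereas 8 of the other markers were higher. Alb held the highest value of the table, 863453, in 1 of 9 libraries from 129 and in 9 of 9 from B6. In the other 8 libraries from 129 Alb was at 176662, and the top value belonged to Rn45s, the precursor of the ribosomal RNAs. Each of these values is a fixed step of the normalised scale. The Alb difference and the lower sum therefore give a lower rank of Alb within its library, not a measured amount of Alb RNA. Rn45s was at 362217, 863453 and 863453 in 129 and at 47070.1, 439903 and 439903 in B6.

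Other measures of the libraries also differed by strain. Mir6236, a locus annotated as a microRNA, was at 53.8, 45004 and 61431 in 129 and at 32.8, 331 and 932 in B6. The only low library of 129 was replicate 1 of ZT14, at 53.8, and the other 8 were all at least 35151. That library also differed from the other 8 in its top transcript, Alb, but its Myom2 value of 122 and Serpina1e value of 273 lay within or beside those of 129 and far from B6. These genes were picked for large strain differences in the same libraries, this one included, so the choice favoured that outcome. Without that library 5065 genes were called in the comparison below. The log2 mean of Mir6236 was 14.4 ± 3.26 in 129 and 7.83 ± 1.68 in B6 (SD, n = 9 each), a difference of 6.60 (two-sided exact permutation test within times, p = 0.00075, adjusted p = 0.001125 over 3 measures, smallest possible p 0.00025). The slope of each library on GC content averaged 0.41 ± 0.31 in 129 and -0.41 ± 0.50 in B6, in log2 units per 10 points of GC (SD, n = 9 each; difference 0.82, same exact permutation p and adjusted p). Genes rich in G and C thus stood higher in 129 libraries as a class.

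The gaps between strains in these measures were smaller or turned in the other settings. In chow light-phase libraries Mir6236 was at 27.7, 167 and 3213 in 129 and 34.3, 150.4 and 1171 in B6, and in HFD dark-phase libraries it was at 294, 1167 and 4029.7 in 129 and 2846, 6202 and 16671 in B6. The GC slope averaged -0.22 ± 0.56 in 129 and -0.44 ± 0.44 in B6 on chow in the light phase, and 0.21 ± 0.17 in 129 and 0.18 ± 0.073 in B6 on HFD in the dark phase (SD, n = 9 each). On HFD in the dark phase Rn45s was the top transcript in 2 of 9 libraries from 129 and in 8 of 9 from B6, the opposite of chow. The share of tested genes with a value under 1 ranged from 0.310% to 6.95% in 129 and from 0.230% to 14.8% in B6. The highest were replicate 3 of ZT22 from 129 and replicate 3 of ZT14 from B6. The median share was 1.06% in 129 and 0.301% in B6. The mean difference was -0.419 percentage points (two-sided exact permutation test within times, p = 0.9985, n = 9 each). Without those 2 libraries it was 0.507, higher in 129 (two-sided exact permutation test within times, p = 0.0075, n = 8 each). Genes listed at 0 in 129 are to be read beside these shares. The count of called genes and some list and gene results are therefore also given in other fits. Such fits leave out those 2 libraries, remove a GC and length trend from every library, or add the Mir6236 level as a covariate. Where no such fit is given, a chow dark-phase result comes only from the fit of all 18 libraries. Strain and Mir6236 level cannot be fully told apart in 18 libraries, since only replicate 1 of ZT14 was low in 129. A call lost in the covariate fit therefore does not show its cause.

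**Figure D1:**
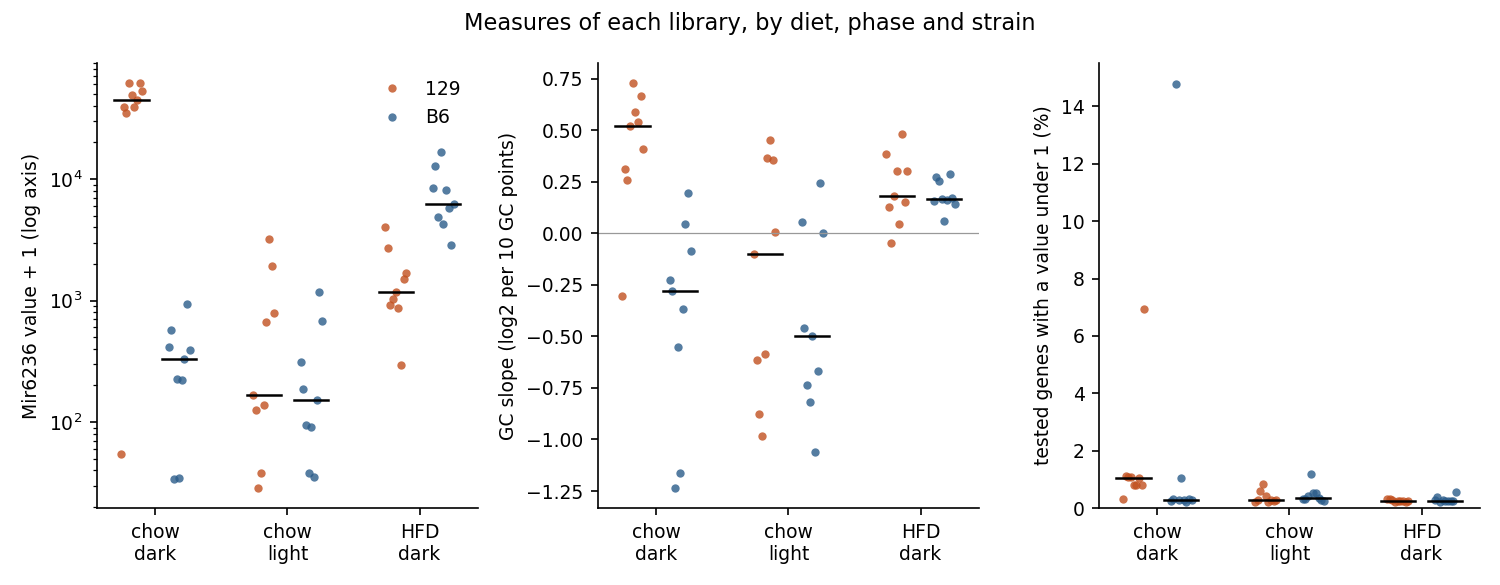
Each point is 1 library, 129 left of B6, and black lines are medians of 9 libraries. Left, Mir6236 value + 1 on a log axis. Middle, slope of the library on GC content. Right, share of tested genes with a value under 1. Mir6236 is high in 8 of 9 chow dark-phase libraries from 129 and in none from B6, and on HFD it is higher in B6 than in 129.

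The mature sequences of the annotated Mir6236 and Mir6240, which moved most between settings, are shown from RefSeq (GRCm38.p6) because their own G and C content can be read beside the GC slope of the libraries. Capitals mark the seed, bases 2 to 8. The libraries were TruSeq RNA libraries of total RNA, per the labels' protocols, so the values are read as those of the annotated loci and not of the mature microRNAs. The mature stretch lies at chr9:110281353-110281371 (plus strand) for Mir6236 and at chr5:114851973-114851998 (plus strand) for Mir6240.
mmu-miR-6236: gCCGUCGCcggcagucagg
mmu-miR-6240: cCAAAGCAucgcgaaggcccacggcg

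Of 11287 genes tested, 4777 (42.3%) differed between the strains, 2128 (18.9%) higher and 2649 (23.5%) lower in 129. The median difference over all genes was -0.036. A called difference of at least 2-fold was seen for 1696 genes, 1005 higher and 691 lower in 129, and one of at least 8-fold for 89 genes, 41 higher and 48 lower. Of the 4777 called genes 4549 had the same sign at ZT14, ZT18 and ZT22. The 9 values of 129 and the 9 values of B6 did not overlap for 427 genes (3.78%), 161 of them higher (1.43%) and 266 lower (2.36%) in 129.

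Without the 2 libraries with many low values 5879 genes (52.1%) were called, 2669 (23.6%) higher and 3210 (28.4%) lower in 129, 4574 of the 4777 remained called and 0 turned sign. With the GC and length trend removed 2556 of 11229 genes (22.8%) were called, 1502 (13.4%) higher and 1054 (9.39%) lower in 129, so the share of higher among called genes was 58.8% in place of 44.5%. Of the 4759 called genes with a GC value 1752 kept their call and sign there, and 734 had the opposite sign. A fit that held the Mir6236 level constant called 224 genes. Without ZT18 1550 genes were called, with ZT14 alone 73, with ZT22 alone 2195 and with ZT18 alone 5213. Over the 24 genes with large rises and falls that are named next, and all alternative fits that gave a value, 889 of 899 values kept their direction and call, 10 kept the direction only and 0 reversed. These genes were picked as called, with 1 sign at each of the 3 times and also called without the 2 libraries, so those alternatives were fixed by the choice. They were also picked as the largest differences in the same 18 libraries, which every other alternative uses in whole or in part. The tally is therefore no independent test of them.

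**Figure D2:**
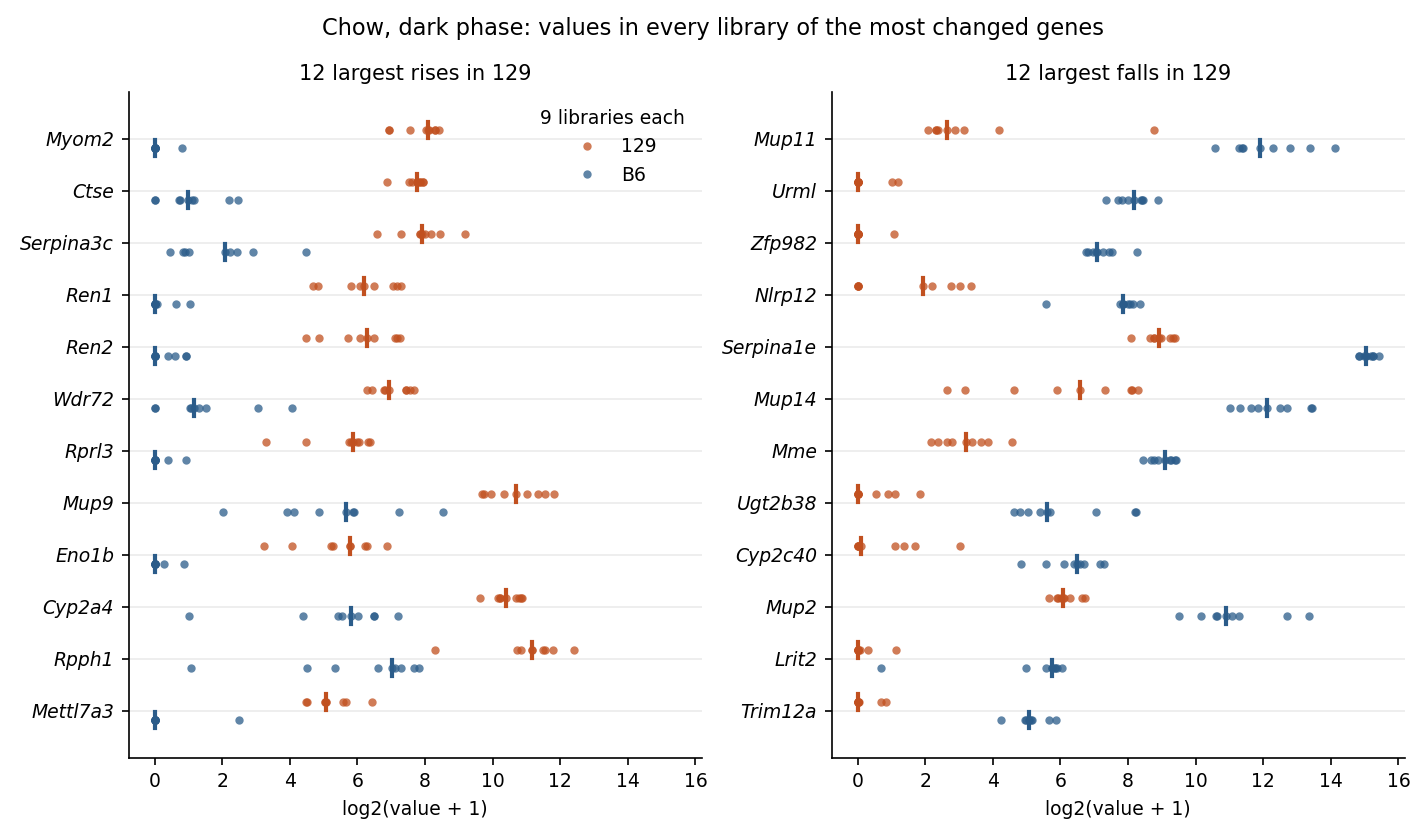
Values of the 12 genes with the largest rise (left) and the 12 with the largest fall (right) in 129 among those the naming rule allows (no predicted models or microRNA genes), on the log2(value + 1) scale. Each point is 1 of 9 libraries of 129 (upper row of each gene) or B6 (lower row), and bars are medians. For 23 of these 24 genes the 2 strains do not overlap, and the exception is Lrit2, where 1 library from B6 lies among those of 129.

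Apart from the predicted model Gm4737 (7.98), the gene with the largest rise in 129 was Myom2, which encodes a protein of the sarcomere M-band. Its values were 120.2, 272 and 338 in 129 and 0, 0 and 0.755 in B6, where 6 of 9 libraries listed it at 0, a log2 difference of 7.76 ± 0.25 (SE, adjusted p = 1.31e-13). Ctse, cathepsin E, an aspartic protease, was at 116, 217 and 245 in 129 and at 0, 0.975 and 4.58 in B6 (log2 6.63, adjusted p = 1.2e-10). The strains did not overlap for either gene.

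Wdr72, a WD-repeat protein, was at 76.2, 122 and 204 in 129 and 0, 1.26 and 15.8 in B6 (log2 5.56, adjusted p = 6.94e-08). Mettl7a3, of a methyltransferase-like family, was at 21.4, 32.7 and 85.5 in 129 and at 0, 0 and 4.63 in B6, listed at 0 in 8 of 9 libraries (log2 4.94, adjusted p = 1.34e-08). On chow in the light phase the log2 differences were 6.95 for Myom2, 6.68 for Ctse, 6.26 for Wdr72 and 5.84 for Mettl7a3. On HFD in the dark phase their log2 differences were 7.91 for Myom2, 6.89 for Ctse, 5.68 for Wdr72 and 5.04 for Mettl7a3.

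Renin, the protease that starts angiotensin production, is listed under 2 symbols whose transcripts cover almost the same stretch of chromosome 1 in the deposited table. Ren1 was at 24.6, 72.6 and 155 in 129 and 0, 0.002 and 1.08 in B6 (log2 5.98, adjusted p = 2.28e-09), and Ren2 at 21.5, 76.2 and 153 in 129 and 0, 0.002 and 0.922 in B6 (log2 5.84, adjusted p = 3.09e-09). The values of the 2 symbols lie close together, and reads of the copies cannot be told apart, so the values of the 2 symbols are not separate evidence. The renin difference was larger in the dark phase than in the light phase, by 2.23 log2 units for Ren1 (adjusted p = 0.00076) and 2.10 for Ren2 (adjusted p = 0.0016).

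Eno1b, a retrotransposed copy of the glycolytic enzyme enolase, was at 8.34, 53.8 and 117 in 129 and at 0, 0 and 0.842 in B6, listed at 0 in 5 of 9 libraries (log2 5.29, adjusted p = 3.31e-08). Its reads may be shared with the parent gene. Rpph1 is the RNA component of ribonuclease P, which trims transfer RNA precursors, and Rprl3 is an RNA annotated as like it. Rprl3 was at 8.79, 57.7 and 81.6 in 129 and 0, 0 and 0.913 in B6 (log2 5.40), and Rpph1 at 315, 2295 and 5427 in 129 and 1.1, 130.3 and 224 in B6 (log2 4.99, adjusted p = 3.23e-05). The low 129 library of Rpph1, at 315, was the one with low Mir6236, and the Rpph1 difference was 3.04 after the GC trend was removed and 0.11 on HFD (adjusted p = 0.821).

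Among the falls, Urml was at 0, 0 and 1.29 in 129, where 7 of 9 libraries listed it at 0, and at 163, 288 and 471 in B6 (log2 -7.89 ± 0.26, adjusted p = 1.31e-13). Zfp982, a zinc finger protein, was at 0, 0 and 1.1 in 129, listed at 0 in 8 of 9 libraries, and at 108, 135 and 307 in B6 (log2 -7.12, adjusted p = 2.3e-12). Nlrp12, an NLR protein that restrains inflammatory signalling, was at 0, 2.8 and 9.13 in 129 and 47, 231 and 324 in B6 (log2 -6.24, adjusted p = 1.12e-07). None of these 3 genes overlapped between strains.

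Mme, neprilysin, a membrane peptidase that degrades peptide hormones, was at 3.54, 8.23 and 22.7 in 129 and 349, 550.3 and 689.5 in B6 (log2 -5.84, adjusted p = 2.24e-12). Trim12a, a member of the TRIM family of restriction factors, was at 0, 0 and 0.798 in 129 and 17.7, 32.5 and 57.2 in B6 (log2 -4.94, adjusted p = 1.87e-09). Lrit2 was at 0, 0 and 1.22 in 129 and 0.612, 53.2 and 64.7 in B6 (log2 -4.98, adjusted p = 6.09e-06). On chow in the light phase these log2 differences were -5.10 for Mme, -4.91 for Trim12a and -5.13 for Lrit2, and on HFD they were -5.28 for Mme, -4.66 for Trim12a and -4.33 for Lrit2. The build named in the submitters' processing notes is mm10, which is the B6 genome, so a 129 level can be too low where 129 reads differ from it, and this was not tested for any of the falls.

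A called difference of at least 2-fold in the same direction was found in the next tested gene on either side, leaving out genes that cover some of the same stretch, for 19% of all tested genes, for 31.5% of the 1696 genes called with at least 2-fold and for 40.4% of the 89 called with at least 8-fold. Lrit2 on chromosome 14 stood beside Lrit1 (-4.84) and Rgr (-4.37), both also called, and these 2 neighbours were named after their values were seen. Nnt, the mitochondrial proton-pumping transhydrogenase, in which C57BL/6J mice are known to carry a deletion, was also chosen after its values were seen. It was at 561, 744 and 859 in 129 and 197, 266 and 298 in B6 without overlap (log2 1.46, adjusted p = 2.28e-09).

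Major urinary proteins included both the largest fall and 1 of the largest rises. Of 21 members on the list 17 passed the filter, 3 were higher and 13 lower in 129, and 9 did not overlap between strains. Over all genes tested the shares were 18.9% higher, 23.5% lower and 3.78% without overlap. Each chow dark-phase list count below from the fit of all 18 libraries is to be read beside these shares. With the GC trend removed the shares over all genes were 13.4% higher and 9.39% lower. With the Mir6236 covariate 224 of all 11287 genes were called, and without ZT18 1550. A list count near 0 in the covariate fit is therefore not particular to that list. The median log2 difference of the Mup members was -2.11, against -0.036 over all genes. With the GC trend removed the counts were 3 higher and 9 lower, and with the Mir6236 covariate 2 higher and 6 lower. The copies are nearly identical in sequence, so how reads were shared among them is uncertain and the value of a single copy is less sure than the family pattern.

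Mup11 fell furthest, with 3.23, 5.25 and 433 in 129 and 1515, 3812 and 17840.2 in B6 (log2 -8.71 ± 0.74, adjusted p = 1.05e-07). The highest 129 value, 433, came from replicate 3 of ZT22, the 129 library with most low values, and the other 8 were at 17.1 or lower. Mup14 was at 5.29, 94.3 and 315 in 129 and 2068, 4446 and 11164 in B6 (log2 -6.13), and Mup2 at 49.1, 66.5 and 106 in 129 and 725, 1919.7 and 10517 in B6 (log2 -4.99). Mup20, known as darcin, the Mup that attracts females to male scent, was at 736, 1405 and 2323 in 129 and 10305, 17258 and 30869.8 in B6 (log2 -3.70, adjusted p = 6.9e-10).

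Against this pattern Mup9 was at 821, 1658 and 3612 in 129 and 3.09, 49.6 and 369.8 in B6 (log2 5.33, adjusted p = 3.25e-07), and Mup21 at 3066, 5311 and 6893 in 129 and 658, 1030.0 and 2162 in B6 (log2 2.06, adjusted p = 5.06e-07). Mup10 was the other member to rise, at 5.36, 24 and 66.8 in 129 and 3.22, 5.73 and 8.22 in B6 (log2 1.65, adjusted p = 0.00165). On chow in the light phase, where 7.43% of all genes were higher and 8.85% lower in 129, 3 members were higher and 13 lower, with a median of -2.06. On HFD in the dark phase, where 14.2% of all genes were higher and 12.3% lower, 3 were higher and 6 lower, with a median of -0.83, and the difference between diets passed the test for 2 members.

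The upstream sequences of Mup9, the copy with the largest rise, and Mup11, the copy with the largest fall, show how alike 2 copies with opposite differences are. They are the 250 bases before the annotated start in RefSeq (GRCm38.p6), both on the minus strand, at chr4:60421953-60422202 for Mup9 and chr4:60662396-60662645 for Mup11. Capitals mark bases that differ from, or have no partner in, the other copy within the aligned stretch.
Mup9: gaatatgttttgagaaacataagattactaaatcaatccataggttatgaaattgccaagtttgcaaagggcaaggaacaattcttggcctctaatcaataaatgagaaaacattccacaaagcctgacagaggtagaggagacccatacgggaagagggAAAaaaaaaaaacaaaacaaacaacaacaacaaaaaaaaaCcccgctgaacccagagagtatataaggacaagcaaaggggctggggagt
Mup11: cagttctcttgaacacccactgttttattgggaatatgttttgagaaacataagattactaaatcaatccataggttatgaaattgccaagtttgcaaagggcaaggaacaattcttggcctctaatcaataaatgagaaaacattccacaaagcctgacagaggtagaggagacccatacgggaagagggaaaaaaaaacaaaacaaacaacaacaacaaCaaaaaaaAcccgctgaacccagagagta
Over 222 aligned positions 217 were identical (97.7%), 1 was a substitution and 4 bases had no partner. The starts are annotated at different points, so 29 bases of Mup9 and 31 of Mup11 fall outside the alignment. This is the B6 reference for both copies, and the 129 sequence was not used here.

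Serine protease inhibitors moved in both directions: of 24 on the list 23 were tested, 10 were higher and 7 lower in 129, and 7 did not overlap. Their median difference was 0.045. With the GC trend removed 10 were higher and 6 lower, and with the Mir6236 covariate 3 were higher and 2 lower. Serpina1e, 1 of the tandem copies of alpha-1 antitrypsin, was at 273, 482 and 667 in 129 and 29099, 33663 and 43705 in B6 (log2 -6.19 ± 0.13, adjusted p = 1.65e-16). Serpina1a, another copy, was at 4813, 6435 and 6831 in 129 and 5697, 6663 and 8326 in B6, with a log2 difference of -0.15 that did not pass (adjusted p = 0.18). Reads may be shared among these copies, which was not tested, so the value of a single copy is uncertain. The fall of Serpina1e was smaller on HFD, at -3.95 (chow minus HFD -2.24, adjusted p = 0.00279).

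The upstream sequences of these 2 antitrypsin copies are set side by side because 1 fell and the other did not pass the test. They are the 250 bases before the annotated start in RefSeq (GRCm38.p6), on the minus strand, at chr12:103956898-103957147 for Serpina1e and chr12:103863620-103863869 for Serpina1a. Capitals mark bases that differ between the copies.
Serpina1e: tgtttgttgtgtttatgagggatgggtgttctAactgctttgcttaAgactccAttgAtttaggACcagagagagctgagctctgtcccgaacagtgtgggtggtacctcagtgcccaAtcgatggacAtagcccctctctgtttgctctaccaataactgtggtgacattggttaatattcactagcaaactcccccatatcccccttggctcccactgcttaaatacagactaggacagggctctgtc
Serpina1a: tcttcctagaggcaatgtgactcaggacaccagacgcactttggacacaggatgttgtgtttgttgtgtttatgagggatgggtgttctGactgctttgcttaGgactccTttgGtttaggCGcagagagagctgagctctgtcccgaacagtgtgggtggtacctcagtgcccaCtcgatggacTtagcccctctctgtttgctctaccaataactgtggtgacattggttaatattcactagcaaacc
Over 192 aligned positions 184 were identical (95.8%) and 8 were substitutions, and 58 bases at the unpaired end of each lie outside the alignment. Both sequences are from the B6 reference, and the sequence of the other strain was not used here. The marked bases thus differ between copies, and whether any differs between strains was not tested.

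In the neighbouring cluster Serpina3c, a relative of antichymotrypsin, was at 94.5, 241 and 585 in 129 and 0.382, 3.23 and 21.1 in B6 (log2 5.99, adjusted p = 8.23e-10). Serpina12, vaspin, was at 1.51, 11.7 and 47.6 in 129 and 63.7, 130.3 and 195 in B6 (log2 -3.22, adjusted p = 0.000131). Neither overlapped. Serpine2, which inhibits thrombin and plasminogen activators, overlapped, with 0, 3.97 and 8.66 in 129 and 0, 26.3 and 77.6 in B6 (log2 -2.81, adjusted p = 0.00386).

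Cytochromes P450 of xenobiotic and steroid metabolism also split. Of 29 tested, 12 were higher and 10 lower in 129, with a median of 0.058, and 9 did not overlap. With the GC trend removed 13 were higher and 8 lower, and with the Mir6236 covariate 3 were higher and 4 lower. Cyp2a4, a steroid 15-alpha hydroxylase that is higher in female mice, was at 795, 1354 and 1851 in 129 and 1.02, 54.9 and 147 in B6 (log2 5.05, adjusted p = 2.75e-06). It has a close copy, Cyp2a5, with which reads may be shared. Within the Cyp2c cluster on chromosome 19, Cyp2c39 was at 417, 644 and 872 in 129 and 0, 38.8 and 48.6 in B6 (log2 4.74, adjusted p = 4.25e-06).

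In the same cluster Cyp2c40 was at 0, 0.078 and 7.21 in 129 and 27.3, 88 and 154 in B6 (log2 -5.53, adjusted p = 9.96e-08), and Cyp2c69 at 0, 3.43 and 8.92 in 129 and 12.5, 43 and 82.5 in B6 (log2 -3.62, adjusted p = 2.94e-05). These 2 are near copies of each other, so reads may be shared between them. On HFD Cyp2c40 was at 0.05, 1.26 and 19.9 in 129 and 0, 1.38 and 5.98 in B6, a difference of 0.016, and Cyp2c69 differed by 0.50. The change between diets passed for both, with chow minus HFD at -5.55 for Cyp2c40 (adjusted p = 1.69e-05) and -4.12 for Cyp2c69 (adjusted p = 0.000723).

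All libraries are labelled male. The Y-linked helicase gene Ddx3y was at 538, 748 and 1357 in 129 and 910.3, 1248 and 1562 in B6 (log2 -0.58, adjusted p = 0.00027). Xist, the RNA that coats the inactive X chromosome of females, was nevertheless at 10.6, 37.7 and 105 in 129 and 0, 1.003 and 37.7 in B6 with overlap (log2 3.44, adjusted p = 0.000358), and was called higher in 129 also in the light phase (2.42) and on HFD (2.49). Tsix is transcribed from the opposite strand of that locus, and whether the counting used strand is not given in the sources used here. The Ddx3y values match the male label in both strains, and the Xist median of B6 lies near 0, as that label would give. The Xist values of 129 are higher than that label would give. No library labelled female was at hand to set beside them, and the source of the Xist reads was not tested.

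Genes of sex-biased liver expression were counted next. Of 19 male-biased genes tested, 6 were higher and 7 lower in 129 with a median of -0.055. Of 17 female-biased genes on the list only 7 passed the filter, and 1 was higher (Cyp2a4) and 4 lower, among them Cyp2b9 at 0, 0 and 6.76 in 129 and 0, 15.4 and 43.1 in B6 (log2 -2.98, adjusted p = 0.00406). Selenbp2, a male-biased selenium-binding protein, was at 105, 240.1 and 971 in 129 and 346, 950.4 and 3197 in B6 (log2 -2.04, adjusted p = 0.00387).

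Conjugating enzymes of phase II were more often lower: of 39 tested, 6 were higher and 16 lower in 129, with a median of -0.33. After removal of the GC trend 11 were higher and 7 lower, so the balance of this list turned with that correction. Ugt2b38, a glucuronosyltransferase, was at 0, 0 and 2.58 in 129 and 23.6, 47.7 and 302 in B6 (log2 -5.58, adjusted p = 3.3e-07). Ugt3a1, a glycosyltransferase, was at 9.97, 47.6 and 131 in 129 and 429, 520.3 and 616 in B6 without overlap (log2 -3.43, adjusted p = 7.47e-08). Gsta1, a glutathione transferase, was at 0, 7.55 and 22.2 in 129 and 21.1, 34.9 and 69.4 in B6 (log2 -2.90, adjusted p = 0.00128).

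**Figure D3:**
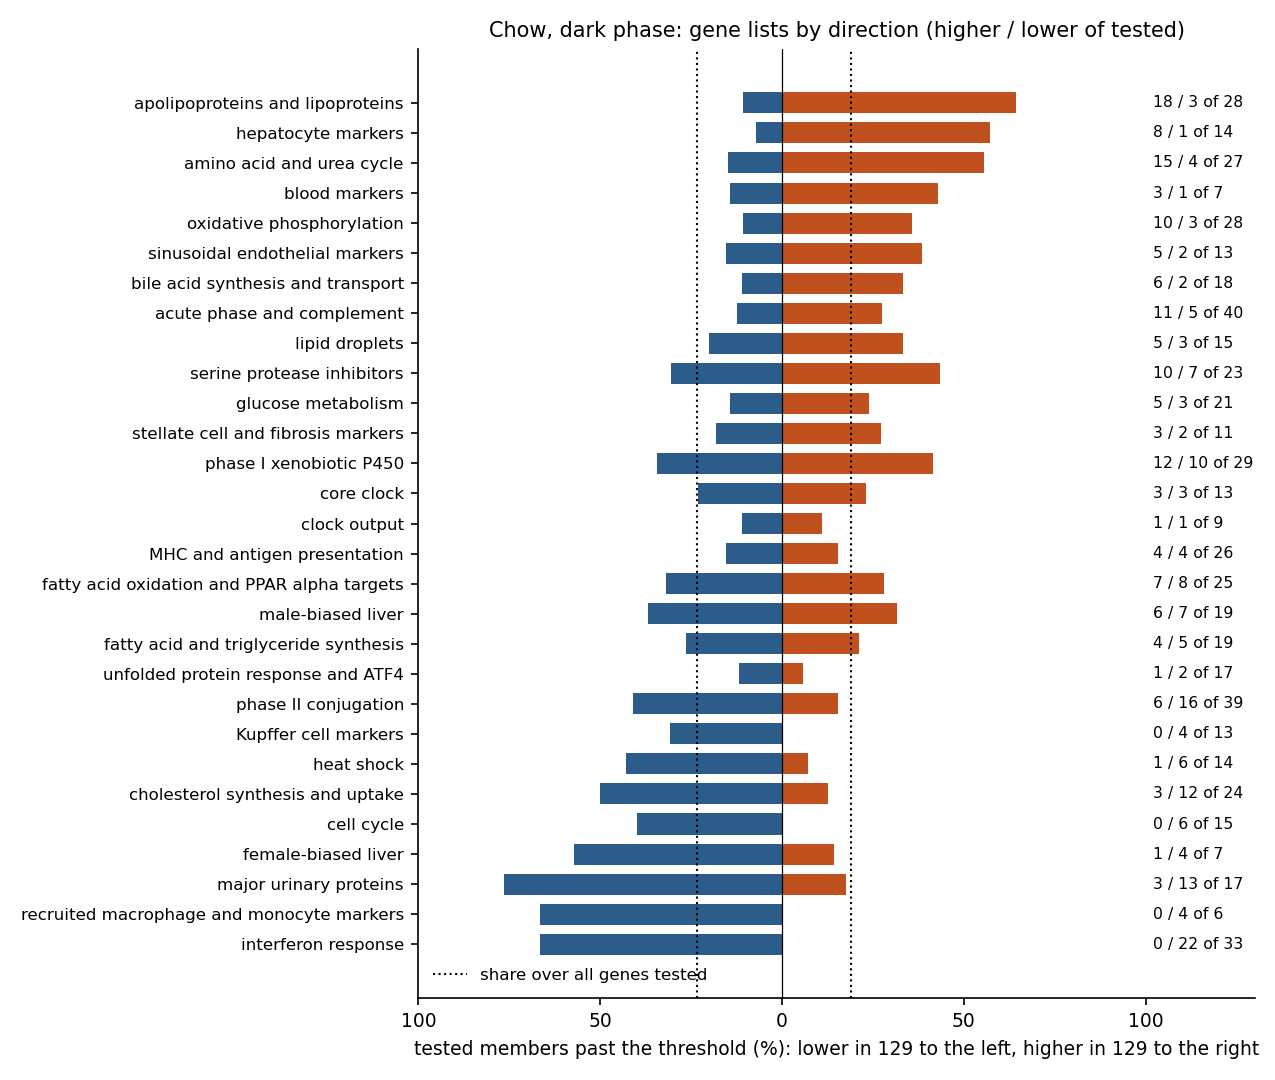
Share of the tested members of each gene list (5 or more tested) that were higher in 129 (bars to the right) or lower in 129 (bars to the left) past an adjusted p of 0.05, with the counts at the right. Dotted lines give the share over all 11287 genes, 18.9% higher and 23.5% lower. The interferon response has 0 members higher and 22 of 33 lower, and apolipoproteins have 18 of 28 higher.

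Interferons are cytokines that, through transcription factors their receptors activate, switch on antiviral GTPases and sensors in most cells. Genes of this response leaned to lower values in 129. Of 41 genes on the list 33 passed the filter, 0 were higher and 22 lower in 129, with a median of -1.06 against -0.036 over all genes, and 7 did not overlap between strains. With the GC trend removed 16 were lower and 0 higher, and with the Mir6236 covariate 3 were lower and 0 higher.

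Irf9, the DNA-binding subunit of the ISGF3 complex, was at 42.7, 81.6 and 107 in 129 and 126, 146 and 179 in B6 with no overlap (log2 -1.04, adjusted p = 0.000134). Irf7, the factor that amplifies the response, was at 16.5, 23.5 and 40.5 in 129 and 35.5, 58.9 and 91 in B6 with overlap (log2 -1.14, adjusted p = 0.00131).

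Of the effectors, Trim30a was at 0, 26.2 and 47.7 in 129 and 53.3, 76.7 and 232 in B6 with no overlap (log2 -2.21, adjusted p = 0.00184). Ifit1, which binds viral RNA, was at 0, 14.4 and 35.6 in 129 and 31.1, 55 and 108 in B6 (log2 -2.12, adjusted p = 0.0026). The guanylate-binding proteins Gbp10, with a log2 difference of -2.89 (adjusted p = 0.000339), and Gbp11, with -2.41 (adjusted p = 0.00689), were the most lowered members. Isg15, a ubiquitin-like modifier, was at 0, 5.85 and 29.3 in 129 and 0, 9.57 and 28.5 in B6 and did not pass (log2 -0.59, adjusted p = 0.512).

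Lower values of interferon response genes were also seen in the libraries that shared none with this comparison. On chow in the light phase 1 member was higher and 22 lower, beside 7.43% and 8.85% of all genes, with a median of -0.80. On HFD in the dark phase 2 were higher and 28 lower, beside 14.2% and 12.3% of all genes, with a median of -1.08. In all 3 settings 19 members were called lower, beside 465 of all 11287 genes. The difference between dark and light passed for 1 member and that between chow and HFD for 2, beside 13.5% and 29.1% of all genes.

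The interferon-inducible p200 cluster on chromosome 1, named after its values were seen, went in both directions. Ifi202b was at 6.65, 20.2 and 35.5 in 129 and 0, 0 and 2.66 in B6 (log2 3.93, adjusted p = 1.62e-06), whereas Ifi204 was at 0.002, 4.91 and 9.94 in 129 and 48.5, 84.3 and 115 in B6 (log2 -3.89, adjusted p = 3.07e-07). Ifi207 (-2.53, adjusted p = 0.00042) and Ifi209 (-2.39, adjusted p = 0.0069) were also lower in 129. These genes are related in sequence and read sharing between them is possible.

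Among the tested macrophage markers and Ptprc, 0 were called higher in 129, and the lower share of Kupffer cell markers was near that over all genes. Of 13 Kupffer cell markers (the resident macrophages of liver) 0 were higher and 4 lower in 129, beside 23.5% lower over all genes, and their summed value was 2210, 2602 and 4330.2 in 129 and 3285, 3605 and 4061 in B6. Of 6 tested markers of recruited macrophages 0 were higher and 4 lower, with sums of 112, 175 and 284 in 129 and 258, 351 and 441 in B6. Ptprc, the pan-leukocyte antigen CD45, was the 1 member of 14 on the lymphocyte list that passed the filter. It was at 16.1, 47.2 and 77.2 in 129 and 75.7, 117 and 208 in B6 (log2 -1.55, adjusted p = 0.000389). As it is not particular to lymphocytes, these values do not describe lymphocytes as such. Vsig4, a complement receptor of Kupffer cells, was at 36.7, 65.2 and 208 in 129 and 139, 209 and 285 in B6 (log2 -1.47, adjusted p = 0.000229). With the GC trend removed 5 Kupffer and 2 recruited macrophage markers were lower. With the Mir6236 covariate 0 of either were, and Ptprc was not called. In whole liver fewer cells of a type and less RNA per cell cannot be told apart. The part of these cells in the difference of interferon response genes was not tested.

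Of 26 tested genes of antigen presentation 4 were higher and 4 lower in 129, with a median of 0.15. With the GC trend removed 2 were higher and 6 lower (median -0.28), and on chow in the light phase 1 was higher and 5 lower (median -0.23). H2-Q1, a class I gene, was at 0, 4.93 and 7.59 in 129 and 14.5, 26.3 and 93.6 in B6 (log2 -2.48, adjusted p = 0.00023), and H2-T10, another, at 6.66, 17.1 and 51.1 in 129 and 0.043, 5.29 and 10.4 in B6 (log2 1.85, adjusted p = 0.00467). The class I copies are alike enough for reads to be shared. On HFD in the dark phase 1 member was higher and 14 lower in 129, beside 14.2% and 12.3% of all genes. The difference between diets passed for 11 of 26, beside 29.1% of all genes. Cell cycle genes showed 0 higher and 6 lower of 15 tested, led by Mcm6, a helicase subunit of DNA replication, at 0, 4.61 and 14.1 in 129 and 10.5, 30.4 and 42 in B6 (log2 -2.64, adjusted p = 0.00049), and Pcna, the sliding clamp, at 27.3, 40.8 and 94.5 in 129 and 115, 139.6 and 212 in B6 (log2 -1.56, adjusted p = 1.18e-05). With the GC trend removed 0 cell cycle genes were higher and 4 lower, and with the Mir6236 covariate 0 were called in either direction.

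Cholesterol synthesis builds sterol from acetyl-CoA through mevalonate and squalene and is switched on by the factor SREBP2 when sterol is low. Its genes leaned to lower values in 129. Of 24 genes, all tested, 3 were higher and 12 lower in 129, with a median of -0.41, and 6 did not overlap. After removal of the GC trend 1 was higher and 13 lower, and with the Mir6236 covariate 0 were higher and 9 lower.

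Hmgcs1, which makes HMG-CoA, was at 317, 397 and 919 in 129 and 1032, 1919.7 and 4056 in B6 (log2 -2.04 ± 0.13, adjusted p = 1.73e-09). Idi1, the isopentenyl isomerase, was at 51.1, 72.7 and 139 in 129 and 208, 329 and 424 in B6 (log2 -2.02, adjusted p = 7.43e-08). Neither enzyme overlapped between strains.

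In the later steps Cyp51, lanosterol demethylase, was at 209, 301 and 630.1 in 129 and 948, 1152 and 1395 in B6 (log2 -1.71, adjusted p = 1.47e-08), and Nsdhl, a sterol dehydrogenase, at 54.7, 102 and 192 in 129 and 262, 344 and 477 in B6 (log2 -1.75, adjusted p = 6e-06). Srebf2, which encodes SREBP2 itself, was among the 3 higher members, at 29.6, 116 and 226 in 129 and 0.13, 45.9 and 80.2 in B6 (log2 1.74, adjusted p = 0.0123). After the GC trend was removed Srebf2 stood at 0.88 (adjusted p = 0.106) and was not called.

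In the light phase on chow 0 sterol genes were higher and 15 lower, beside 7.43% and 8.85% of all genes, with a median of -0.84. On HFD in the dark phase 0 were higher and 13 lower, beside 14.2% and 12.3% of all genes, with a median of -0.68. In all 3 settings 7 of 24 were called lower, beside 465 of all 11287 genes. The difference between dark and light passed for 4 of 24, beside 13.5% of all genes. That between chow and HFD passed for 8 of 24, beside 29.1% of all genes.

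**Figure D4:**
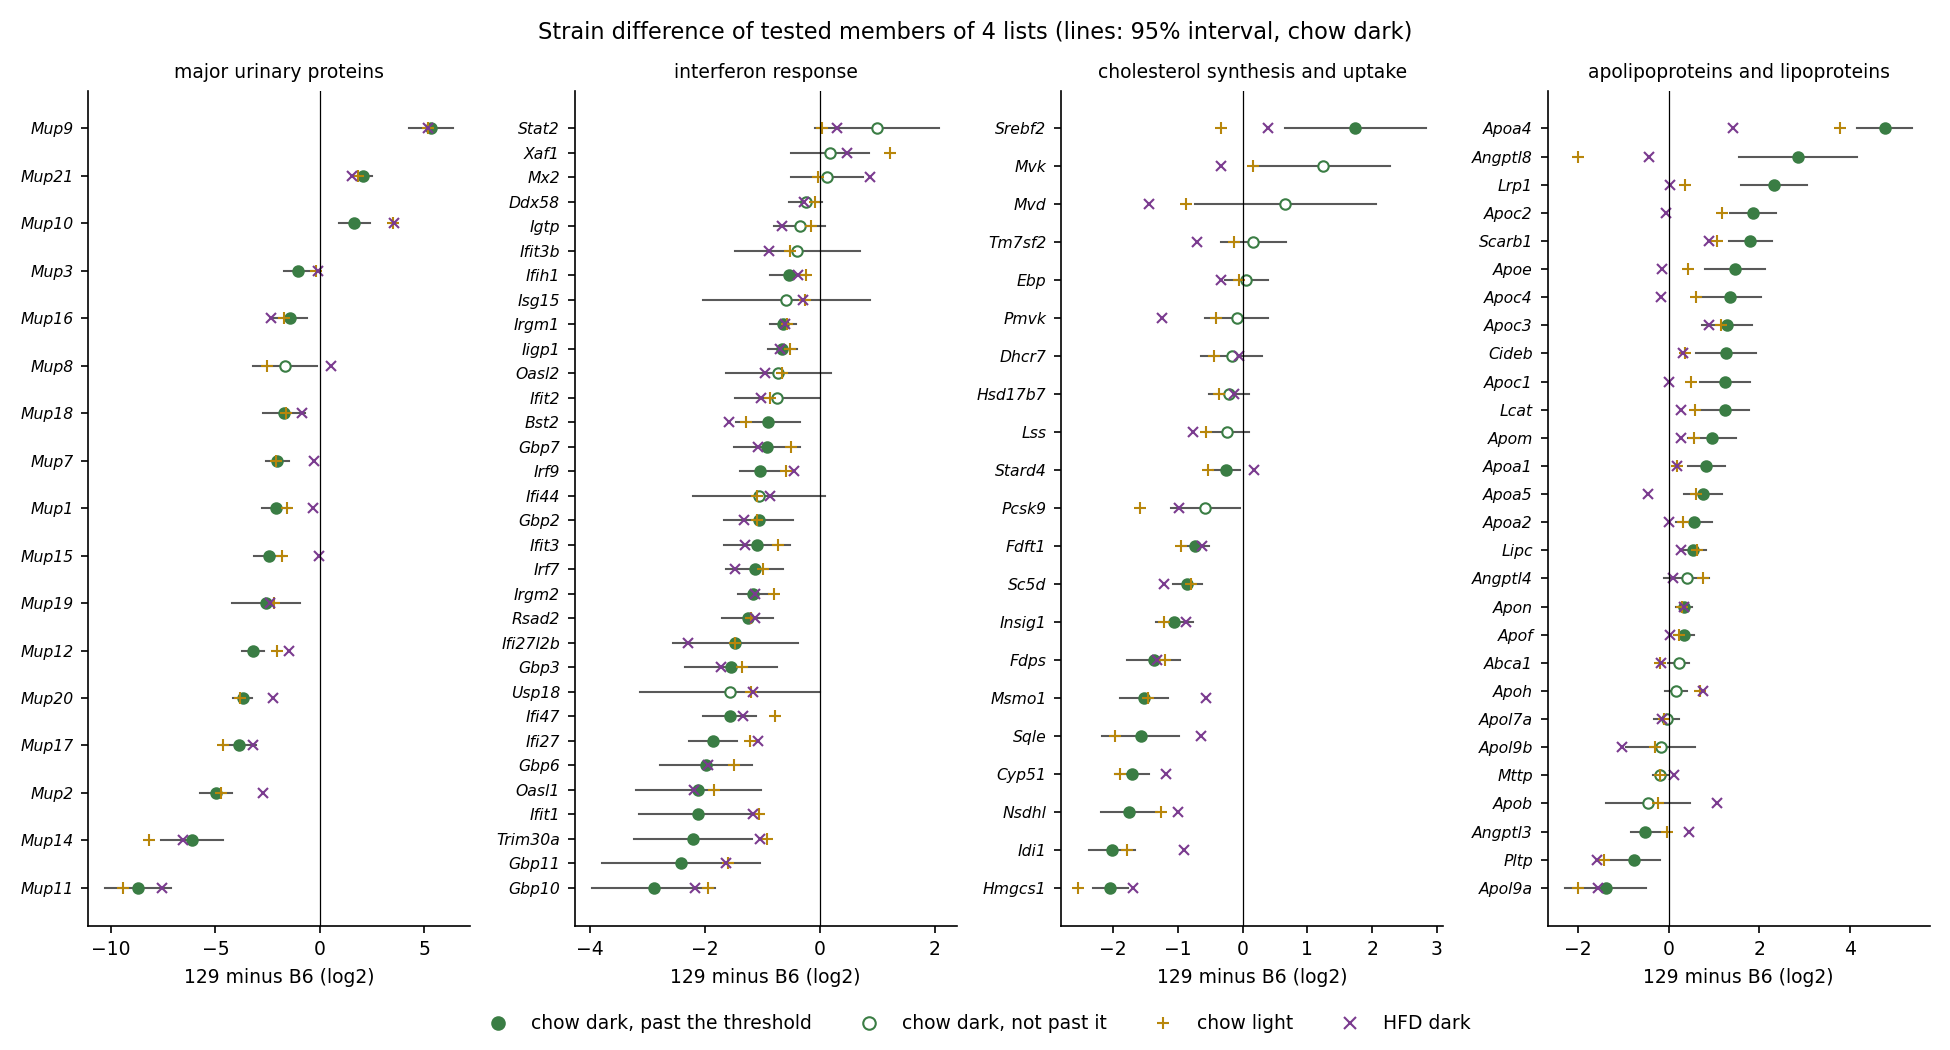
Strain difference (129 minus B6, log2) of tested members of 4 lists, sorted by its value on chow in the dark phase. Circles with 95% intervals are chow dark, filled where past the threshold, plus signs are chow light and crosses are HFD dark. Most interferon and sterol genes lie left of 0 in all 3 settings, while many apolipoproteins lie right of 0 on chow dark and near 0 on HFD.

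Apolipoproteins and the proteins that process lipoproteins leaned to higher values in 129. Of 28 genes, all tested, 18 were higher and 3 lower, with a median of 0.66, and 3 did not overlap. With the GC trend removed 17 were higher and 2 lower. With the Mir6236 covariate, where 224 of all 11287 genes were called, 1 was higher and 0 lower. Without ZT18, 7 were higher and 2 lower.

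Apoa4, a chylomicron apolipoprotein that liver makes on lipid load, was at 1298, 4194 and 4832 in 129 and 33.7, 125 and 338 in B6 with no overlap (log2 4.76 ± 0.29, adjusted p = 1.46e-09). Apoc2, the activator of lipoprotein lipase, was at 525, 1115 and 1369 in 129 and 91.7, 325 and 514 in B6, again with no overlap (log2 1.86, adjusted p = 1.81e-05). Apoe, the ligand for remnant uptake, was at 19287, 43705 and 70334 in 129 and 4014, 17258 and 32504 in B6 with overlap (log2 1.46, adjusted p = 0.00161).

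Lrp1, the remnant receptor, was at 1075, 4641 and 8444 in 129 and 179, 1072 and 1811 in B6 (log2 2.32, adjusted p = 7.43e-05). Apob, the backbone of very low density lipoprotein, was at 110328, 110328 and 376869 in 129 and 61431, 110328 and 439903 in B6 and did not pass (log2 -0.46, adjusted p = 0.412). On HFD 8 members were higher and 4 lower, beside 14.2% and 12.3% of all genes, with a median of 0.070. The difference between the diets passed for 17 of 28, against 29.1% of all genes. For Apoa4 it was 3.34 (adjusted p = 0.000574), for Apoc2 1.92 (adjusted p = 0.000243) and for Apoe 1.60 (adjusted p = 0.00301).

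Enzymes of amino acid breakdown and the urea cycle leaned the same way, with 15 higher and 4 lower of 27 tested and a median of 0.72. On HFD 9 were higher and 4 lower, beside 14.2% and 12.3% of all genes. Hpd, of tyrosine breakdown, was at 6435, 14947 and 16925 in 129 and 1584, 5024 and 10305 in B6 (log2 1.59, adjusted p = 0.000132), and Gnmt, which uses up S-adenosylmethionine, at 2674, 4906 and 7896 in 129 and 606, 2054 and 4832 in B6 (log2 1.44, adjusted p = 0.000237). Asns, asparagine synthetase, went the other way, with 0, 36.7 and 107 in 129 and 27.5, 103 and 171 in B6 (log2 -1.72, adjusted p = 0.0317). With the Mir6236 covariate 0 members were called in either direction, beside 224 of all 11287 genes. Without ZT18, where 1550 of all genes were called, there were 4 higher and 2 lower.

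Subunits of oxidative phosphorylation were higher for 10 and lower for 3 of 28, with a median of 0.097. Cox4i1, of cytochrome c oxidase, was at 722, 1587 and 1943 in 129 and 119, 569.6 and 1165 in B6 (log2 1.57, adjusted p = 0.00113), and Ndufs7, of complex I, at 53.2, 117 and 180.3 in 129 and 3.69, 32.2 and 85.4 in B6 (log2 1.93, adjusted p = 0.00106). Both overlapped between strains. Esrra, a nuclear receptor of mitochondrial genes, was at 31.4, 90.5 and 176 in 129 and 7.21, 22.6 and 38.4 in B6 (log2 2.14, adjusted p = 0.000127), and its relative Esrrg at 0, 21.4 and 37.3 in 129 and 0, 10.2 and 21.2 in B6 did not pass (log2 0.61, adjusted p = 0.455). With the Mir6236 covariate 0 subunits were called in either direction, and the Esrra call was lost.

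Fat metabolism gave mixed counts. Of 19 genes of fatty acid and triglyceride synthesis 4 were higher and 5 lower in 129, with a median of -0.087. On HFD 1 was higher and 11 lower, beside 14.2% and 12.3% of all genes. Scd1, the delta-9 desaturase, was at 16925, 22394 and 40953 in 129 and 32504, 61431 and 110328 in B6 (log2 -1.43, adjusted p = 0.000141), Me1, malic enzyme, at 453, 667 and 963 in 129 and 1007, 1534 and 3164 in B6 with no overlap (log2 -1.26, adjusted p = 3.36e-07), and Elovl6, an elongase, at 329, 617 and 1078 in 129 and 1016, 1239 and 2804 in B6 (log2 -1.25, adjusted p = 0.00021). Srebf1, which encodes the lipogenic factor SREBP1, was at 190.2, 1309 and 1615 in 129 and 61.3, 303 and 651 in B6, higher in 129 (log2 1.85, adjusted p = 0.000639).

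Of 25 genes of fatty acid oxidation 7 were higher and 8 lower, with a median of 0.14, beside 18.9% higher and 23.5% lower over all genes. With the GC trend removed 4 were higher and 3 lower, and with the Mir6236 covariate 0 were higher and 1 lower. Cd36, the fatty acid transporter, was at 81, 143 and 278 in 129 and 554, 868 and 1183 in B6 with no overlap (log2 -2.54, adjusted p = 2.64e-08), and Vnn1, pantetheinase, at 27.1, 94.5 and 162 in 129 and 229.6, 308 and 481 in B6, also with none (log2 -2.05, adjusted p = 7.78e-06). Among 15 lipid droplet genes 5 were higher and 3 lower. Pparg, the adipogenic receptor, was at 5.85, 11.7 and 40.3 in 129 and 67.3, 90.2 and 246 in B6 with no overlap (log2 -2.82, adjusted p = 5.23e-06). Its log2 difference was -2.16 on chow in the light phase and -2.27 on HFD in the dark phase, called in both.

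Bile acid genes were higher for 6 and lower for 2 of 18, with a median of 0.14. With the GC trend removed 10 were higher and 0 lower, and with the Mir6236 covariate 2 were higher and 0 lower. Nr0b2, the repressor SHP, was at 35.3, 59.4 and 134 in 129 and 0, 15.6 and 24.2 in B6 with no overlap (log2 2.99, adjusted p = 0.000744), and Abcg8, of the sterol exporter, at 256, 434 and 739 in 129 and 87.3, 152 and 290.3 in B6 (log2 1.43, adjusted p = 1.41e-06). Cyp7a1, the rate-limiting enzyme of bile acid synthesis, was at 568, 3142 and 8519 in 129 and 2046, 3912 and 8519 in B6 and did not pass (log2 -0.58, adjusted p = 0.115).

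Of 21 genes of glucose metabolism 5 were higher and 3 lower in 129, beside 18.9% higher and 23.5% lower over all genes. With the GC trend removed 4 were higher and 0 lower, and with the Mir6236 covariate 0 were called in either direction. Igfbp2, which binds insulin-like growth factors, was at 336, 880.2 and 1278 in 129 and 88.4, 193 and 294 in B6 with no overlap (log2 2.16, adjusted p = 1.77e-06). After the GC trend was removed Igfbp2 stood at 0.95 (adjusted p = 0.01).

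Acute phase and complement genes were higher for 11 and lower for 5 of 40, with a median of 0.050. Over all genes 18.9% were higher and 23.5% lower. With the GC trend removed 12 members were higher and 2 lower, and with the Mir6236 covariate 2 were higher and 0 lower. C4a, a complement C4 copy known as the sex-limited protein, was at 277, 409 and 561 in 129 and 50.4, 70.3 and 148 in B6 with no overlap (log2 2.25, adjusted p = 7.59e-08), and Il1r1, the interleukin-1 receptor, at 120.2, 165 and 324 in 129 and 221, 444 and 657 in B6 (log2 -1.17, adjusted p = 1.2e-05). Heat shock genes were higher for 1 and lower for 6 of 14, with Hspa1b at 0, 10.7 and 37.8 in 129 and 4.29, 45 and 79.2 in B6 (log2 -2.07, adjusted p = 0.0088). With the GC trend removed 0 heat shock genes were higher and 3 lower, and with the Mir6236 covariate 0 were called in either direction. Genes of the unfolded protein response were higher for 1 and lower for 2 of 17.

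The clock is a feedback loop in which ARNTL and CLOCK switch on the Per and Cry repressors and the Nr1d receptors. Of 13 core clock genes 3 were higher and 3 lower in 129, with a median of 0.20. The 3 higher calls, Per1, Per2 and Nr1d1, were lost with the GC trend removed, with the Mir6236 covariate and without ZT18, where 0 were higher in each, and 3, 0 and 1 were lower in these fits. The activators Arntl, at 29.7, 109 and 246 in 129 and 11.3, 164 and 227 in B6 (log2 0.031, adjusted p = 0.92), and Npas2, with a log2 difference of 0.48 (adjusted p = 0.499), did not pass. Clock had a difference of -0.28 (adjusted p = 0.026), which was 0.090 after the GC trend was removed.

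Of the repressors, Per1 was at 36.9, 82.7 and 162 in 129 and 0, 20.9 and 60.4 in B6 (log2 2.31, adjusted p = 0.00528) and Per2 at 133, 248 and 479 in 129 and 82.1, 138 and 232 in B6 (log2 1.02, adjusted p = 0.000858). Per3 (-0.35), Cry1 (0.14) and Cry2 (1.25) did not pass, with adjusted p of 0.274 for Per3, 0.563 for Cry1 and 0.129 for Cry2, though Cry2 passed without the 2 libraries with many low values (adjusted p = 0.017). Nr1d1, or REV-ERB alpha, was at 1.42, 15.1 and 64.5 in 129 and 0, 3.51 and 18.6 in B6 (log2 1.73, adjusted p = 0.0294), and without the 2 libraries with many low values it did not pass (adjusted p = 0.0509). After the GC trend was removed the log2 difference was 1.26 for Per1 (adjusted p = 0.0663), 0.48 for Per2 (adjusted p = 0.135) and 1.09 for Nr1d1 (adjusted p = 0.136).

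Nr1d2, or REV-ERB beta, was at 71.5, 275 and 1274 in 129 and 214, 737 and 1957 in B6 (log2 -1.14, adjusted p = 8.7e-05). Rora, a nuclear receptor that competes with the REV-ERBs, differed by -0.26 (adjusted p = 0.0191). Ciart, a further repressor, differed by 0.45 and did not pass (adjusted p = 0.555). Among 9 clock output genes 1 was higher, Hlf at 287, 385 and 466 in 129 and 183, 254 and 359 in B6 (log2 0.56, adjusted p = 0.00309), and 1 lower, Nampt, with -0.39 (adjusted p = 0.0331), which stood at 0.22 after the GC trend was removed. Over all genes 18.9% were higher and 23.5% lower.

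Markers of the other cell types of liver gave both directions. Of 13 sinusoidal endothelial markers 5 were higher and 2 lower, with summed values of 2453, 3223 and 3454 in 129 and 1799, 2392 and 2864 in B6. Stab1, a scavenger receptor, was at 206, 392 and 561 in 129 and 8.04, 133 and 309 in B6 (log2 1.90, adjusted p = 0.00253), whereas Lyve1, a hyaluronan receptor of the same cells, was at 24.1, 31.4 and 51.3 in 129 and 61.1, 75.6 and 163 in B6 (log2 -1.31, adjusted p = 0.000132). Of 11 stellate cell and fibrosis markers 3 were higher and 2 lower, with sums of 2249, 2509 and 2794 in 129 and 2467, 2609 and 2881 in B6. With the GC trend removed 4 endothelial markers were higher and 2 lower, and 1 stellate marker was higher and 1 lower. With the Mir6236 covariate 0 markers of either type were called. Of 3 tested neutrophil markers 0 were called, with sums of 0, 3.20 and 7.30 in 129 and 0.057, 4.17 and 11.8 in B6, and of 7 blood markers 3 were higher and 1 lower.

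A test of strain by time within the dark phase (limma, Benjamini-Hochberg) called 1 gene (0.00886%), and 1715 genes (15.2%) had an unadjusted p under 0.05. Leaving out a library gave between 1 and 6 genes, the most without replicate 3 of ZT14 from B6, and leaving out the 2 libraries with many low values gave 7. The called gene was Mug2, murinoglobulin 2, a proteinase inhibitor related to alpha-2 macroglobulin (adjusted p = 6.7e-05). In 129 it was at 128, 100.2 and 128 at ZT14, at 355, 522 and 385 at ZT18 and at 1206, 1056 and 789 at ZT22. In B6 all 9 values lay between 2764 and 3822. The difference was thus -4.86 at ZT14, -3.05 at ZT18 and -1.64 at ZT22 on the log2 scale.

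Against the light phase of the same diet, whose 18 libraries are other ones, 78.4% of the genes called here had the same sign, against 67.6% of all genes tested. Both settings called 1034 genes in the same direction, 21.6% of those called here and 56.3% of the 1838 (16.3%) called in the light phase, and 41 in opposite directions. The strain difference itself differed between dark and light for 1521 genes (13.5%), 591 with a higher value in the dark (5.24%) and 930 with a lower one (8.24%). After removal of the GC trend 549 genes differed, with the Mir6236 covariate 2 did, with no filter on low values 839, and without replicate 2 or replicate 3 of ZT14 from 129 the count was 996 or 988.

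Angptl8, a feeding-induced inhibitor of lipoprotein lipase, was at 16.1, 426 and 960.2 in 129 and 0, 56.6 and 135 in B6 in the dark (log2 2.86, adjusted p = 0.00163) and at 0, 6.81 and 29.3 in 129 and 4.15, 23 and 118 in B6 in the light. The dark minus light difference was 4.86 (adjusted p = 0.00318). Its lowest 129 dark values were those of ZT14, at 16.1, 67.9 and 80.4.

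Rgs16, a regulator of G protein signalling that follows feeding time in liver, was at 0, 6.79 and 162 in 129 and 0, 18 and 117 in B6 in the dark, a difference of -0.79 that did not pass, and at 14.1, 100.3 and 618 in 129 and 0, 35.6 and 234 in B6 in the light. Its dark minus light difference was -3.61 (adjusted p = 0.0154). Zfhx2, a homeodomain protein, was at 5.67, 54.2 and 101 in 129 and 0, 4.15 and 7.77 in B6 in the dark (dark minus light 3.89, adjusted p = 0.00042). Mir6236, with a dark minus light difference of 5.83, and Mir6240, with 5.77, headed the list.

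**Figure D5:**
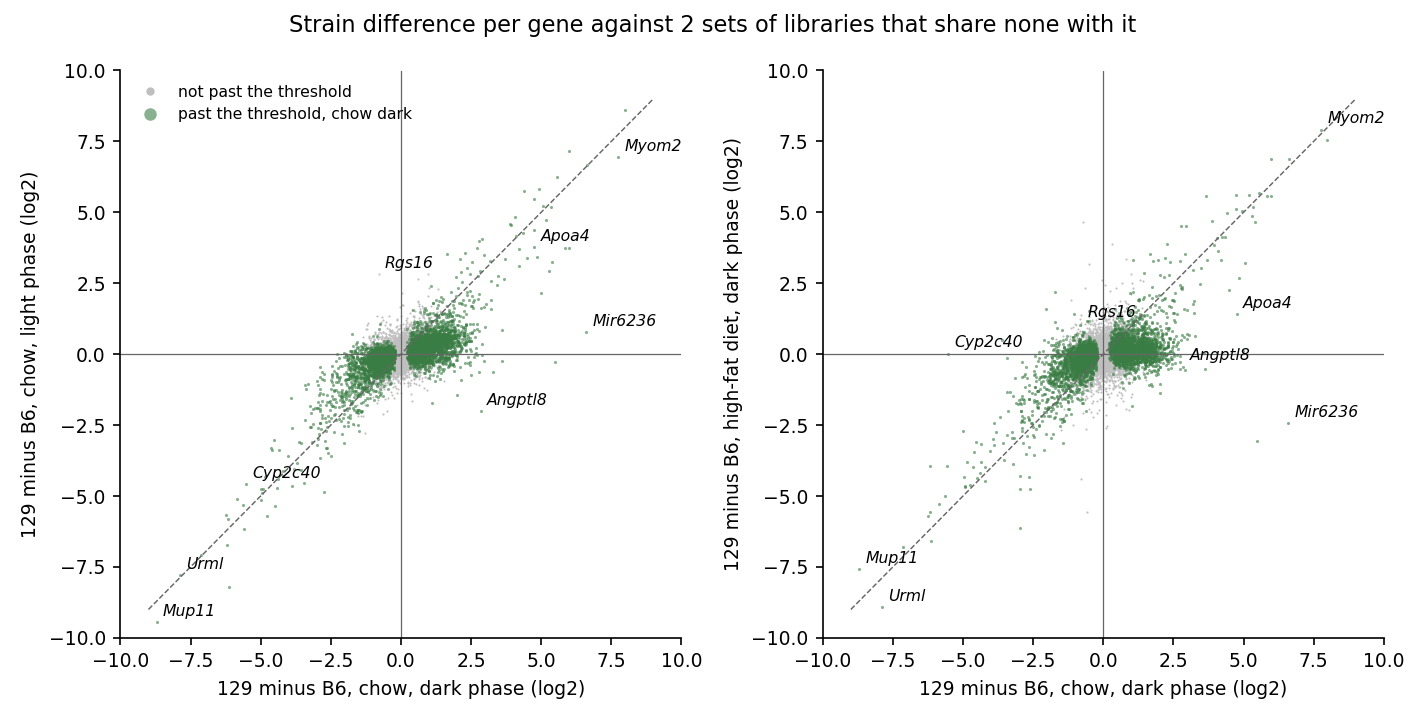
Strain difference of each of 11287 genes on chow in the dark phase (x axis) against that on chow in the light phase (left) and on HFD in the dark phase (right), both 129 minus B6 in log2. Green points were past the threshold on chow in the dark phase, and the dashed line marks equal values. Large differences such as Mup11, Urml and Myom2 lie near that line, whereas Mir6236, Angptl8 and, on HFD, Cyp2c40 lie far from it.

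Against HFD at the same hours, again with other libraries, 70.9% of the genes called here had the same sign, against 60.5% of all genes. Both diets called 1315 genes in the same direction, 27.5% of those called on chow and 43.9% of the 2995 (26.5%) called on HFD, and 160 in opposite directions. The strain difference changed with diet for 3279 genes (29.1%), 1401 with a higher value on chow (12.4%) and 1878 with a lower one (16.6%). With the GC trend removed 960 genes differed and with the Mir6236 covariate 0, while leaving out any 1 library of the chow dark-phase set gave between 2623 and 3790 genes.

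Sult1e1, estrogen sulfotransferase, was at 0, 1.06 and 18.4 in 129 and 0.382, 3.94 and 12.5 in B6 on chow and at 11.6, 119 and 239 in 129 and 1.26, 2.66 and 7.99 in B6 on HFD. Its strain difference was -0.74 on chow, which did not pass, and 4.67 on HFD, a chow minus HFD difference of -5.41 ± 0.66 (SE, adjusted p = 2.01e-05). Cfd, adipsin, a complement protease of fat cells, was at 0, 0.002 and 1.97 in 129 and 0, 1.09 and 4.63 in B6 on chow and at 0, 0 and 0 in 129 and 0.065, 66.7 and 164 in B6 on HFD (chow minus HFD 4.99, adjusted p = 0.000277). Since Cfd was listed at 0 in all 9 HFD libraries from 129, the size of its difference depends on the added 1. On chow neither gene passed the test between strains.

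Of the 89 genes with a called difference of at least 8-fold, 86 had the same sign in the light phase and 84 on HFD, and 74 were called in the same direction in all 3 settings. Over all genes 728 were called in the same direction in all 3, 263 higher and 465 lower in 129.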

How the data were processed

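Liver RNA of 129S1/SvImJ and C57BL/6J mice was analysed from the table of transcript values deposited for wild-type mice, which holds 42361 transcripts in 72 labelled libraries. Per the labels' protocols, total RNA was made into TruSeq libraries. STAR, HOMER and the mm10 build are named in the submitters' processing notes, with versions not given in the sources used here. The unit is a signal: the authors' deposited file holds quantile-normalised values, as its contents show, since the sorted values were identical in all libraries. Counts were not recoverable, so depth, intervals for counting error and count models do not apply.

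Transcripts with a mean of at least 10 over the 72 libraries were kept and the one with the highest mean was taken per symbol. The log2(value + 1) of 9 against 9 libraries was fitted with limma 3.58.1 (R 4.3.3, eBayes with trend), with time as a block, and p-values were adjusted by Benjamini and Hochberg over 11287 genes, with 0.05 as the threshold. Differences between settings were contrasts over 12 group means in 36 libraries. Library measures were compared by exact permutation within times (8000 arrangements). The fit was tested on simulated data with independent noise in each gene. These data held no library-wide differences in GC slope or Mir6236 level, so that test does not bear on them. Sequences were read from RefSeq tables and aligned with Biopython 1.88. Transcript GC content came from GENCODE M21 and was found for 11229 genes (99.5%).

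Genes were named by rule: the 12 largest rises and falls among genes called with 1 sign at all 3 times and also without the 2 libraries with many low values (leaving out predicted gene models and the microRNA, snoRNA, snRNA and scaRNA genes by symbol, which keeps Rpph1 and Rprl3), up to 4 of the most changed called members of a list, the core clock and Esrrg, and up to 6 genes per test of a difference. Beyond that rule, Apob, Apoe, Cyp51, Cyp7a1, Ddx3y, Gm4737, Ifi202b, Ifi204, Ifi207, Ifi209, Irf7, Irf9, Isg15, Lrit1, Mup10, Mup21, Nnt, Rgr, Rn45s, Serpina1a and Xist were chosen after their values were seen. Some genes that the rule names are not reported here, though lists count them. The comparison, its members and the gene lists were chosen with earlier results of these data known.

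Replicate numbers recur in both strains, but deviations of same-numbered libraries correlated between -0.126 and 0.111, so the numbers were not taken to pair the samples. Alternatives covered pseudocount, filter, transcript choice, the GC and length trend, a replicate block, the Mir6236 level, the variance model, and leaving out libraries or times.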

Additional observations from a re-analysis of the deposited data

Results flagged for a closer look

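These results stood out because the strain difference was not the same in 2 settings, by a test of the difference itself. Between dark and light on chow 1521 genes differed, and between chow and HFD in the dark phase 3279 genes. Between the 3 dark-phase times 1 gene differed, Mug2 (adjusted p = 6.7e-05, limma).

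Of the dark minus light differences in log2, Mir6236 stood at 5.83, Mir6240 at 5.77, Angptl8 at 4.86, Zfhx2 at 3.89 and Rgs16 at -3.61. Of the chow minus HFD differences, Mir6236 stood at 9.04, Mir6240 at 8.57, Cyp2c40 at -5.55, Sult1e1 at -5.41, Cfd at 4.99 and Rpph1 at 4.88. The Mir6236 level of the libraries moves with both contrasts, and its part in the gene-level differences was not tested. Fits with it as a covariate left 2 and 0 genes in these tests. Strain and Mir6236 level nearly coincide in the chow dark-phase libraries, where only replicate 1 of ZT14 was low in 129. Those fits therefore cannot tell strain and Mir6236 level apart.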

How the results depend on the processing

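The strain difference called between 3864 and 6514 genes with other pseudocounts, filters, transcript choices, variance models, with all 72 libraries in 1 fit and without the 2 libraries with many low values. Leaving out 1 library gave 4179 to 5337. A replicate block gave 4559 (number) and 4136 (9 pairs), though same-numbered libraries did not deviate together. The count moved to 2556 with the GC and length trend removed, to 2449 with that and the replicate block, to 224 with the Mir6236 covariate, to 73 with ZT14 alone, to 2195 with ZT22 alone and to 1550 without ZT18.

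Strain by time gave 7 genes without the 2 libraries, 4 with the GC trend removed, 6 with that and the replicate block, 2 with the 9-pair replicate block and 1 to 6 leaving out 1 library. Dark minus light gave 839 with no filter, 549 with the GC trend removed, 523 with that and the replicate block, 2 with Mir6236, and 988 to 2164 leaving out 1 library. Chow minus HFD gave 960, 913 and 0 in the same fits of GC, GC with replicate block and Mir6236, and 2623 to 3790 leaving out 1 library. The strain difference in the share of low values was -0.419 percentage points, 0.507 without the 2 libraries and -1.09 to 1.18 leaving out 1; GC slope ranged over 0.716 to 0.909 and Mir6236 over 6.26 to 7.69.

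Signs turned with the GC trend removed, with and without the replicate block, for Dnaja1 (0.024), Col4a1 (-0.26), Dcn (0.054), Reln (-0.023), Dnajb9 (0.28), Nampt (0.22), Clock (0.090) and Sult1e1 (0.17). They turned with Mir6236 for Col4a1 (-0.33), Clock (0.050), Sult1e1 (0.60), Cyp8b1 (-0.10), G0s2 (-0.21), Acaa1a (-0.074), Nr1d1 (-0.088), Khk (-0.39), Lipe (-0.28), Hyou1 (-0.21), Rora (0.015) and Ciart (-0.43). Arntl turned with pseudocount 10 (-0.0083), without ZT14 (-0.15), at ZT18 (-0.26) and ZT22 (-0.040) alone, and ranged from -0.14 to 0.13 leaving out 1 library. At ZT14 alone Nampt (0.16), Sult1e1 (1.73), Per3 (0.24) and Rgs16 (1.08) turned, at ZT18 alone Cry1 (-0.18), Esrrg (-1.35) and Npas2 (-0.87), and at ZT22 alone Cyp8b1 (-0.31), Khk (-0.063), Ciart (-1.06) and Cry1 (-0.010). Without ZT14 Ciart (-0.10), Cry1 (-0.095) and Esrrg (-0.30) turned and without ZT18 Sult1e1 (0.26), and Cry1 ranged from -0.011 to 0.22 leaving out 1 library. The cause was not tested.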
